A study of Arabidopsis thaliana with 16 samples.

Results

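The fasciclin-like arabinogalactan proteins (FLAs) described here are 9 Arabidopsis genes, FLA1, FLA2, FLA6, FLA7, FLA8, FLA9, FLA11, FLA12 and FLA13, out of 28598 genes in the count table and out of 21 genes of the FLA family. They were taken by gene identifier, as a set drawn around FLA13, with earlier results of the dark against light comparison known. Their dark and light levels are therefore given as a description, with no test. RNAseq was performed on 8 libraries of a dispersed Columbia (Col-0) cell suspension culture derived from leaves, a dividing culture without organised tissue. The 4 dark-grown libraries, Dark-RNA1 to Dark-RNA4, came from flasks wrapped in foil for 2 weeks, and the 4 light-grown libraries, Light-RNA1 to Light-RNA4, from flasks under constant light. Both groups grew at the same temperature and shaking speed in Gamborg's B5 medium with sucrose and 2,4-D, an auxin herbicide that keeps the cells dividing. The labels give 16 h after subculture for every library. The study's results also name 16 h, but its methods add a longer time, in days, for light-grown cells without naming the samples.

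FLAs are secreted glycoproteins of the cell surface. They combine fasciclin domains, known in animals for cell adhesion, with proline-rich stretches that carry the large arabinogalactan sugar chains of arabinogalactan proteins (AGPs), and most of them are held at the plasma membrane by a glycosylphosphatidylinositol (GPI) anchor. FLA6, FLA7, FLA9, FLA11, FLA12 and FLA13 have a single fasciclin domain, and FLA1, FLA2 and FLA8 have a pair. FLA11 and FLA12 are known from the secondary walls of stems, FLA1 from the early steps of shoot regeneration in culture, and FLA4 (SOS5) from root cell expansion, where it acts with the receptor-like kinases FEI1 and FEI2.

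FLA13 (AT5G44130) is a single-exon gene on the forward strand of chromosome 5 (TAIR10 positions 17760865 to 17762089). FLA7 (AT2G04780) on the forward strand of chromosome 2 (1676717 to 1678455) has 2 annotated transcripts and 1 coding exon. FLA9 (AT1G03870), a single-exon gene on the reverse strand of chromosome 1 from 982381 to 983544, encodes the protein most like FLA13 among the members, with 194 identical residues or 78.5% of the length. The 250 bases before these genes are shown because FLA7 and FLA13 have the largest log2 fold changes of the members and FLA9 a small one. Each run reads towards the gene, from the TAIR10.1 RefSeq assembly. Capitals mark the only motif found in them, the TATA box TATAAA read on both strands, and none of the 3 windows reaches into another annotated gene.
FLA7, chr2:1676467-1676716, forward strand: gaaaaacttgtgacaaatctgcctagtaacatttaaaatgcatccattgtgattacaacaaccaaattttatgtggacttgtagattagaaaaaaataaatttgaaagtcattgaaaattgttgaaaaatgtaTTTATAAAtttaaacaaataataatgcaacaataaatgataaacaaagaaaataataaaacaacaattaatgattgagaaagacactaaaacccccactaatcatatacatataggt
FLA13, chr5:17760615-17760864, forward strand: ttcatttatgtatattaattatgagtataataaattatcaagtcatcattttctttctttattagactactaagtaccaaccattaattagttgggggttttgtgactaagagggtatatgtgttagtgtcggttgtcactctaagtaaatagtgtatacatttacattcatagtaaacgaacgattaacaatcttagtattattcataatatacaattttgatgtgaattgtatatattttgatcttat
FLA9, chr1:983545-983794, reverse strand: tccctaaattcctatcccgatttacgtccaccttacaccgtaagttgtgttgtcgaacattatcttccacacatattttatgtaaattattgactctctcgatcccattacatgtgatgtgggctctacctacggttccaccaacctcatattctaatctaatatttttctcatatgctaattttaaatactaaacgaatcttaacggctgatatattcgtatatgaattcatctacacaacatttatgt

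In the FLA7 window 2 matches to TATAAA, 1 on each strand, overlap and begin 117 and 115 bases before the gene. Of the 9 members, 4 (FLA2, FLA6, FLA7 and FLA8) hold TATAAA in the same window, against 47.3% of 27443 windows of protein-coding genes. The I-box GATAAG, a motif of many light-regulated genes, is found before FLA6 and FLA12, against 12.3% of all windows. The G-box CACGTG and the evening element AAAATATCT occur before none of the 21 FLA genes, against 6.49% and 2.36% of all windows. These matches describe letters in a window of fixed length and were not tested.

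Among the proteins encoded by the members, the single-domain ones count 246 to 254 residues, and FLA1, FLA2 and FLA8 count 424, 403 and 420 residues. The next most similar pairs after FLA9 and FLA13 are FLA6 and FLA9 with 55.9% identity, FLA6 and FLA13 with 54.3%, FLA11 and FLA12 with 52.8% and FLA1 and FLA2 with 50.4%. FLA7 stands apart in sequence, with at most 38.6% identity to any other member, and holds the highest share of proline at 10.6%, against 3.97% to 7.86% in the others. The last 20 residues, where a GPI attachment signal ends in a hydrophobic tail, have a mean Kyte-Doolittle hydropathy of 1.27 to 2.16 in the 9 members. In FLA15 to FLA18, which are known to lack a GPI signal, the same measure is 0.01 to 0.53.

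No stretch of 50 exon bases of 8 of the members recurs unchanged elsewhere in the genome, and in FLA8 4 of 1797 stretches (0.223%) do. A read of 50 bases without mismatches thus tells FLA9 from FLA13. FLA11 overlaps AT5G03160, and since the use of strand in counting is not given in the sources used here, reads of FLA11 and of this neighbour may not be separable.

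The libraries held between 29916585 and 32688689 counts in the dark-grown group and between 18363149 and 37813411 in the light-grown group, so that 3 counts correspond to 0.0942 to 0.0994 and 0.0779 to 0.159 CPM. CPM stands for the count of a gene scaled to a common library size with edgeR's TMM factor. The labels were checked with 6 genes that mark the light-grown state (LHCB1.1, LHCB2.1, LHCA1, RBCS1A, PORB and PORC). The list of 7 also held PORA, which had 1 count in Dark-RNA2 and 0 in every other library. All 6 that were tested were lower in the dark in edgeR's test. The summed level of the 7 was 16.0, 42.0, 12.7 and 16.7 CPM in Dark-RNA1 to Dark-RNA4, against 595, 635, 657 and 365 CPM in Light-RNA1 to Light-RNA4. Dark-RNA2 was thus the highest of the dark-grown libraries and Light-RNA4 the lowest of the light-grown ones, and the log2 fold change of each fitted member is also given without Dark-RNA2 and without both. Both libraries were picked from these same data. The standard error of a fit without them therefore leaves out part of the spread between cultures. Of 4 markers of xylem vessels, VND6 and VND7 reached at most 0.159 CPM in any library and XCP2 was at 0 in all 8. The other, XCP1, stood at 1.43, 4.56, 1.10 and 1.33 CPM in Dark-RNA1 to Dark-RNA4, against 1.45, 1.19, 1.96 and 1.96 CPM in Light-RNA1 to Light-RNA4, and was thus also highest in Dark-RNA2. In a culture sequenced in bulk, fewer cells that express a gene and less RNA per cell cannot be told apart.

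FLA13 showed the highest mean level per exon length of the 9 genes in the light and also the largest SD between dark-grown cultures. It stood at 5.18, 98.1, 9.83 and 7.72 CPM in Dark-RNA1 to Dark-RNA4 (163, 3013, 313 and 233 counts), against 144, 168, 114 and 42.0 CPM in Light-RNA1 to Light-RNA4 (5554, 5652, 2787 and 793 counts). Of the dark-grown cultures, 3 were under 10 CPM, whereas Dark-RNA2 lay above Light-RNA4 and the groups overlapped. The mean was 30.2 ± 45.3 CPM in dark-grown cells and 117 ± 55 CPM in light-grown cells (SD, n = 4 each), with a log2 fold change of -1.96 (SE 0.96) in edgeR's fit, where SE is the standard error. Dark-RNA2 carried 12.9 times the mean level of the other dark-grown libraries. Without it the dark-grown mean was 7.58 ± 2.33 CPM (SD, n = 3), the light-grown mean was 15.4 times as high, the groups did not overlap, and the log2 fold change was -3.95 (SE 0.52). With Light-RNA4 left out as well it was -4.23 (SE 0.27). These were its highest dark-grown and its lowest light-grown library, so leaving them out widens the difference by construction.

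FLA7 was close to silent in some dark-grown cultures and well expressed in every light-grown one. Its level was 3.94, 13.5, 0.565 and 0.563 CPM in Dark-RNA1 to Dark-RNA4 (124, 415, 18 and 17 counts), against 62.2, 78.3, 87.5 and 44.2 CPM in Light-RNA1 to Light-RNA4 (2396, 2634, 2140 and 834 counts). The groups did not overlap, and within the dark-grown group Dark-RNA2 was again the highest, at 7.99 times the mean of the others. The means were 4.65 ± 6.12 CPM in dark-grown cells and 68.0 ± 19.0 CPM in light-grown cells (SD, n = 4 each), and the log2 fold change was -3.87 (SE 0.95). Without Dark-RNA2 the dark-grown mean was 1.69 ± 1.95 CPM (SD, n = 3), the light-grown mean was 40.3 times as high, and the log2 fold change was -5.32 (SE 0.76). Without Light-RNA4 as well it was -5.48 (SE 0.73).

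**Figure D1:**
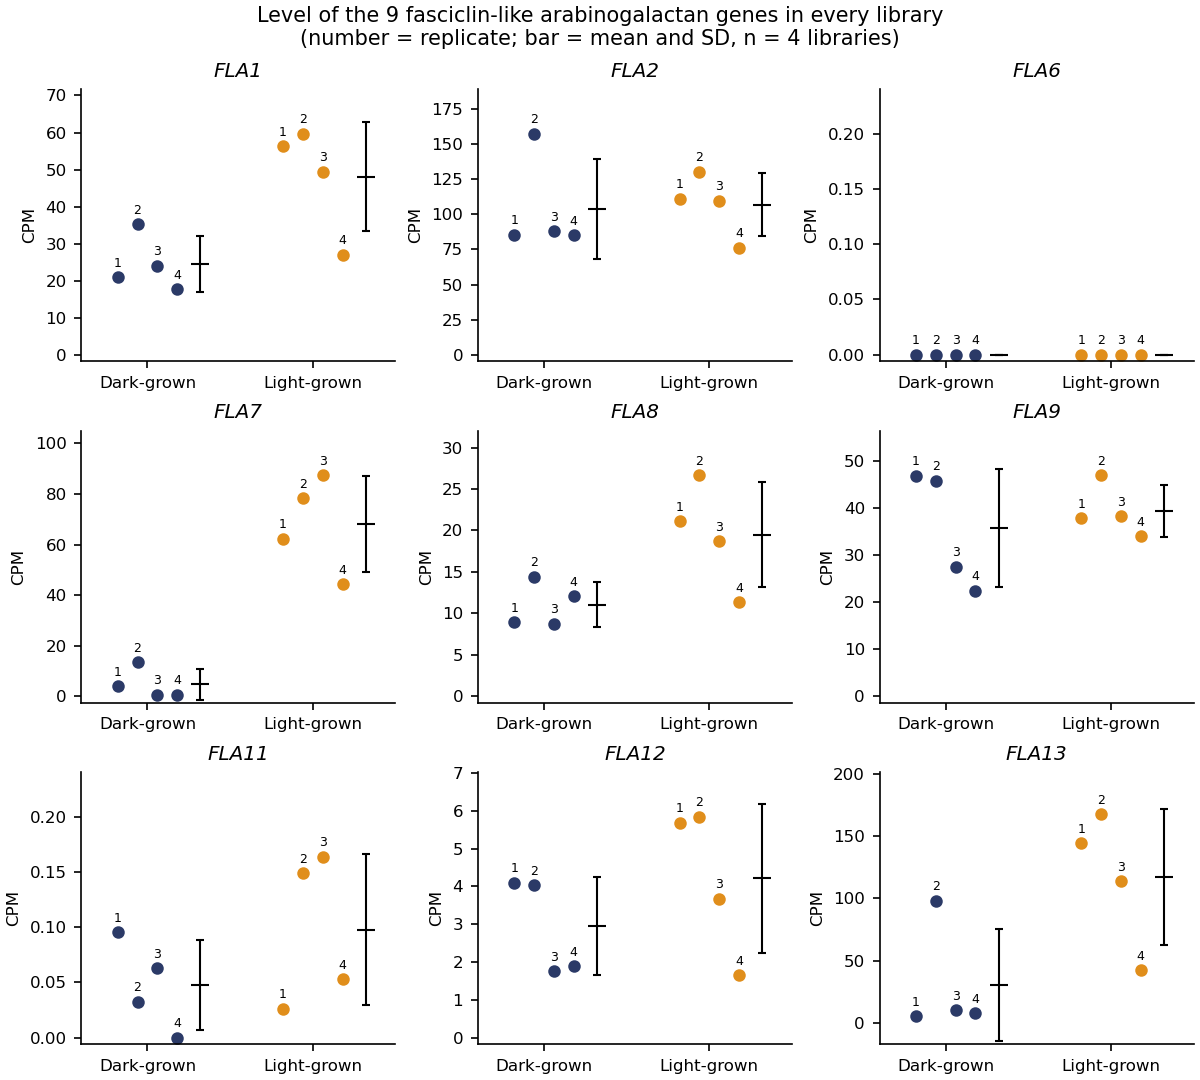
Level in CPM (vertical axis, a separate linear scale for each gene) of the 9 FLA genes in the 4 dark-grown libraries (left, blue) and the 4 light-grown libraries (right, orange). Points are libraries with their replicate number, and bars give the mean and SD of 4 libraries. Only FLA7 has groups that do not overlap. For FLA13 the dark-grown library at 98.1 CPM is Dark-RNA2, and the light-grown library at 42.0 CPM is Light-RNA4.

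The members with a pair of fasciclin domains were spread over a smaller range. FLA1 (AT5G55730) stood at 20.9, 35.2, 24.0 and 17.6 CPM in Dark-RNA1 to Dark-RNA4, against 56.3, 59.7, 49.4 and 27.0 CPM in Light-RNA1 to Light-RNA4. Dark-RNA2 lay above Light-RNA4, so the groups overlapped, and without Dark-RNA2 they did not. The log2 fold change was -0.98 (SE 0.29), or -1.21 without Dark-RNA2 and -1.40 without Dark-RNA2 and Light-RNA4. FLA8 (AT2G45470) stood at 8.93, 14.4, 8.76 and 12.03 CPM in the dark-grown libraries, against 21.1, 26.7, 18.7 and 11.3 CPM in the light-grown libraries. Here Dark-RNA2 and Dark-RNA4 lay above Light-RNA4, and the log2 fold change was -0.82 (SE 0.27), or -0.98 without Dark-RNA2 and -1.16 without both. FLA2 (AT4G12730), with the highest mean level per exon length in dark-grown cells, stood at 85.6, 158, 88.2 and 85.0 CPM in Dark-RNA1 to Dark-RNA4, against 111, 130, 110 and 76.2 CPM in Light-RNA1 to Light-RNA4. All dark-grown libraries lay above Light-RNA4, Dark-RNA2 lay above every light-grown library, and the log2 fold change was -0.04 (SE 0.24). It was -0.31 (SE 0.17) without Dark-RNA2 and -0.44 (SE 0.095) without both. For FLA1, FLA2, FLA7, FLA8 and FLA13, Dark-RNA2 was the highest dark-grown and Light-RNA4 the lowest light-grown library. Leaving them out thus widens the difference of each by construction.

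FLA9, the closest relative of FLA13 in protein sequence, had similar levels in both groups. It stood at 47.0, 45.9, 27.6 and 22.4 CPM in Dark-RNA1 to Dark-RNA4, against 37.97, 47.1, 38.4 and 34.0 CPM in Light-RNA1 to Light-RNA4, with a log2 fold change of -0.14 (SE 0.24), or -0.28 without Dark-RNA2 and -0.34 without both. In the dark-grown group the libraries fell into a higher pair, Dark-RNA1 and Dark-RNA2, and a lower pair. The FLA13 level divided by the FLA9 level was 0.110, 2.14, 0.356 and 0.344 in Dark-RNA1 to Dark-RNA4, against 3.799, 3.57, 2.97 and 1.24 in Light-RNA1 to Light-RNA4. Dark-RNA1 thus had FLA9 at its highest dark-grown level and FLA13 at its lowest.

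The members known from secondary walls were low or near absent. FLA12 (AT5G60490) stood at 4.10, 4.04, 1.76 and 1.89 CPM in Dark-RNA1 to Dark-RNA4, against 5.69, 5.85, 3.68 and 1.64 CPM in Light-RNA1 to Light-RNA4, with a log2 fold change of -0.52 (SE 0.45), or -0.71 without Dark-RNA2 and -0.97 without both. The lowest of the 8 values was that of Light-RNA4, and the groups overlapped. FLA11 (AT5G03170) had 3, 1, 2 and 0 counts in the dark-grown libraries, against 1, 5, 4 and 1 counts in the light-grown libraries. FLA6 (AT2G20520) had 0 counts in all 8 libraries, which allows at most 0.0942 to 0.0994 CPM in dark-grown and 0.0779 to 0.159 CPM in light-grown libraries, for counting error only. FLA6 and FLA11 did not pass edgeR's filter on low counts.

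Of the 9 members 7 were thus fitted, and all 7 log2 fold changes were negative, with a median of -0.82, against 0.0039 over the 19129 genes that passed the filter. In 15 other settings FLA2 was negative in 11, FLA9 in 14 and each of the other 5 in all 15. The log2 fold change of FLA7 lay between -5.32 and -3.49 in these settings and that of FLA13 between -3.95 and -1.603, in both cases lowest without Dark-RNA2. The groups did not overlap in 1 of the 7 members, FLA7, and in 16.6% of all genes tested. Without Dark-RNA2 they did not overlap in 3 of the 7 members (FLA1, FLA7 and FLA13), in 4 of the 6 fitted FLA genes outside the set (FLA15 to FLA18) and in 28.0% of all genes tested. Since the members were chosen on this comparison, nothing is read from these counts.

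**Figure D2:**
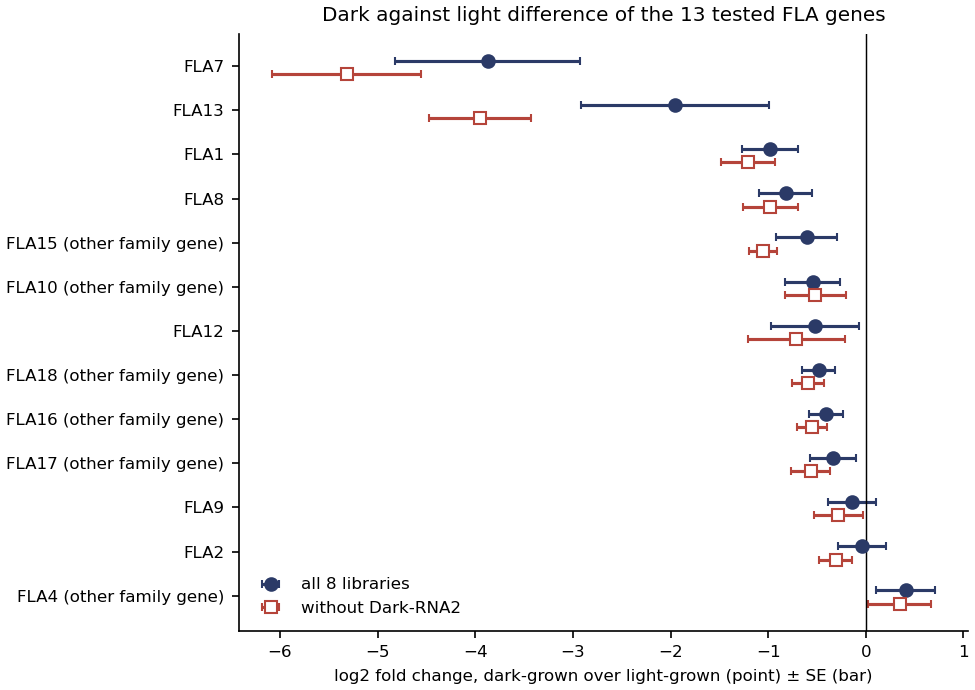
Log2 fold change of dark-grown over light-grown cells (horizontal axis) for the 13 FLA genes that passed the filter, ordered by size, with bars for 1 standard error. Filled circles use all 8 libraries and open squares leave out Dark-RNA2. FLA13 lies at -1.96 with all libraries and at -3.95 without Dark-RNA2, FLA7 at -3.87 and -5.32, and FLA4 is the only gene above 0.

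In most members Dark-RNA2 stood above its group and Light-RNA4 below its group. Dark-RNA2 was the highest dark-grown library for 5 of the 7 members, against 32.7% of all genes tested, the exceptions being FLA9 and FLA12, for which Dark-RNA1 was. Light-RNA4 was the lowest light-grown library for 7 of the 7, against 38.1% of all genes tested. Relative to the mean of the other 3 dark-grown libraries Dark-RNA2 stood at 1.42 to 1.83 times for the members other than FLA7, FLA11 and FLA13. Relative to the mean of the other 3 light-grown libraries Light-RNA4 stood at 0.296 times for FLA13, 0.324 times for FLA12 and 0.489 to 0.827 times for FLA1, FLA2, FLA7, FLA8 and FLA9. The summed level of the markers of the light-grown state moved with the FLA levels in both libraries, as given above. LHCB2.1, LHCA1, RBCS1A and PORB were each highest in Dark-RNA2 among dark-grown libraries. PORC was not, at 3.13 CPM in Dark-RNA2 against 4.84 in Dark-RNA3 and 3.55 in Dark-RNA4. LHCB1.1 had at most 2 counts in any dark-grown library. The part of these markers in the result was not tested. Light-RNA4 also has the smallest total of the 8 libraries.

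Per exon length, which allows levels to be compared between genes, FLA13 led in the light with 95.5 ± 44.6 CPM per kb (SD, n = 4). It was followed by FLA2 with 57.7, FLA7 with 39.1, FLA9 with 33.8 and FLA1 with 27.4 CPM per kb, and each neighbour in this order overlapped the next over its 4 libraries. FLA8 with 10.5, FLA12 with 3.07 and FLA11 with 0.108 CPM per kb each lay below the gene before it in every light-grown library. In dark-grown cells the order was FLA2 with 56.2 ± 19.2 (SD, n = 4), FLA9 with 30.7, FLA13 with 24.7, FLA1 with 13.9, FLA8 with 5.98, FLA7 with 2.67, FLA12 with 2.15 and FLA11 with 0.053 CPM per kb. FLA9, FLA13 and FLA1 overlapped as neighbours in that order, as did FLA8, FLA7 and FLA12. The places of FLA13 and FLA7 in the dark rest on Dark-RNA2. Without it FLA13 averaged 6.19 ± 1.9 CPM per kb, below FLA1 with 11.9, and FLA7 averaged 0.972 ± 1.12 CPM per kb, below FLA12 with 1.88 (SD, n = 3).

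The summed level of the 9 genes was 176, 369, 161 and 147 CPM in Dark-RNA1 to Dark-RNA4, against 439, 516, 421 and 236 CPM in Light-RNA1 to Light-RNA4. Dark-RNA2 lay above Light-RNA4, and the other dark-grown libraries lay below every light-grown one. The make-up of this sum, in shares of CPM that are not corrected for gene length, was as follows. FLA2 made up 51.0% ± 6.7 of it in dark-grown cells and 27.2% ± 3.3 in light-grown cells (SD, n = 4 each). FLA7 made up 1.66% ± 1.60 in dark-grown cells and 17.2% ± 3.1 in light-grown cells, and FLA13 10.2% ± 11 and 27.6% ± 7.0 (SD, n = 4 each). Without Dark-RNA2 the dark-grown shares were 0.992% ± 1.08 for FLA7 and 4.77% ± 1.63 for FLA13 (SD, n = 3). FLA1 kept a like share, 12.1% ± 2.2 in dark-grown cells and 11.9% ± 0.64 in light-grown cells (SD, n = 4 each). Shares add to 100%, so FLA2, whose own mean level was 104 CPM in dark-grown and 107 CPM in light-grown cells, takes a larger share where the others are low.

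**Figure D3:**
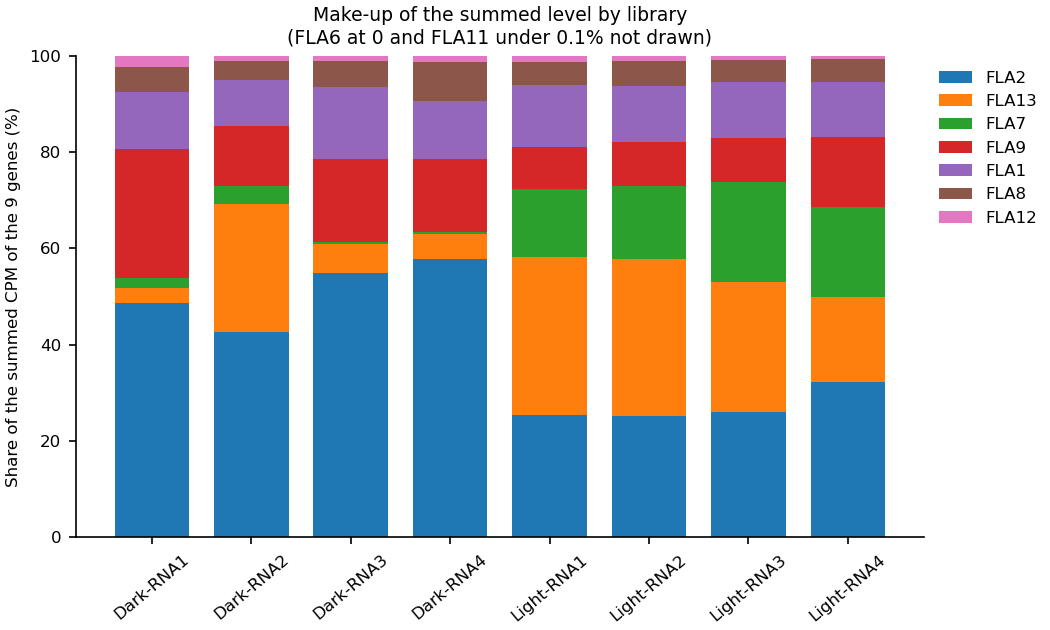
Share of each gene in the summed CPM of the 9 FLA genes (vertical axis, %) in the 4 dark-grown libraries (left) and the 4 light-grown libraries (right). FLA2 fills 42.7% to 57.7% of the sum in dark-grown libraries and 25.3% to 32.2% in light-grown libraries, and FLA7 at most 3.66% in dark-grown and at least 14.2% in light-grown libraries.

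The profile of FLA13 over the 8 libraries was compared with those of the 19116 tested genes outside the FLA family, by the root mean square difference of log2 CPM after centring each gene on its own mean. The 5 nearest genes were PnsB3 (AT3G16250) at 0.32, HB25 (AT5G65410) at 0.41, AT3G17190 at 0.44, AT3G50560 at 0.44 and CYP707A4 (AT3G19270) at 0.46 log2 units. PnsB3 encodes a subunit of the chloroplast NDH complex of cyclic electron flow, HB25 a homeobox protein, CYP707A4 an enzyme of abscisic acid breakdown and AT3G50560 a protein with an NAD(P)-binding Rossmann fold, and AT3G17190 is annotated as an uncharacterized protein. CYP707A4 stood at 0.381, 10.0, 1.10 and 0.961 CPM in Dark-RNA1 to Dark-RNA4, against 9.63, 11.97, 10.1 and 7.84 CPM in Light-RNA1 to Light-RNA4. PnsB3 stood at 0.0636, 1.92, 0.251 and 0.133 CPM in the dark-grown libraries, against 4.88, 6.68, 2.78 and 0.848 CPM in the light-grown libraries. In all 5 genes Dark-RNA2 was the highest and Dark-RNA1 the lowest dark-grown library, and Light-RNA4 was the lowest light-grown library, as for FLA13. Likeness over the same 8 libraries was the rule that picked these genes. Their shared order thus follows largely from the choice and is no separate result. For AT3G17190 Dark-RNA1 and Dark-RNA4 had 1 count each, at 0.0318 and 0.0331 CPM, so their order reflects only the scaled library size. In Dark-RNA1 the 4 genes other than CYP707A4 lay under the level of 3 counts, 0.0954 CPM, so this end of their profiles is poorly measured.

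No FLA gene came as near to FLA13 as these. The nearest was FLA1 at 1.36 log2 units, rank 648 among the tested genes, followed by FLA15 at 1.45, FLA8 at 1.47 and FLA7 at 1.47. FLA9, its closest relative in sequence, lay at 1.78, rank 3709. Profiles were centred but not scaled, so a gene with a small range lies far from FLA13 by that alone. In Dark-RNA2 FLA7 stayed below its level in Light-RNA4, and FLA13 did not.

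**Figure D4:**
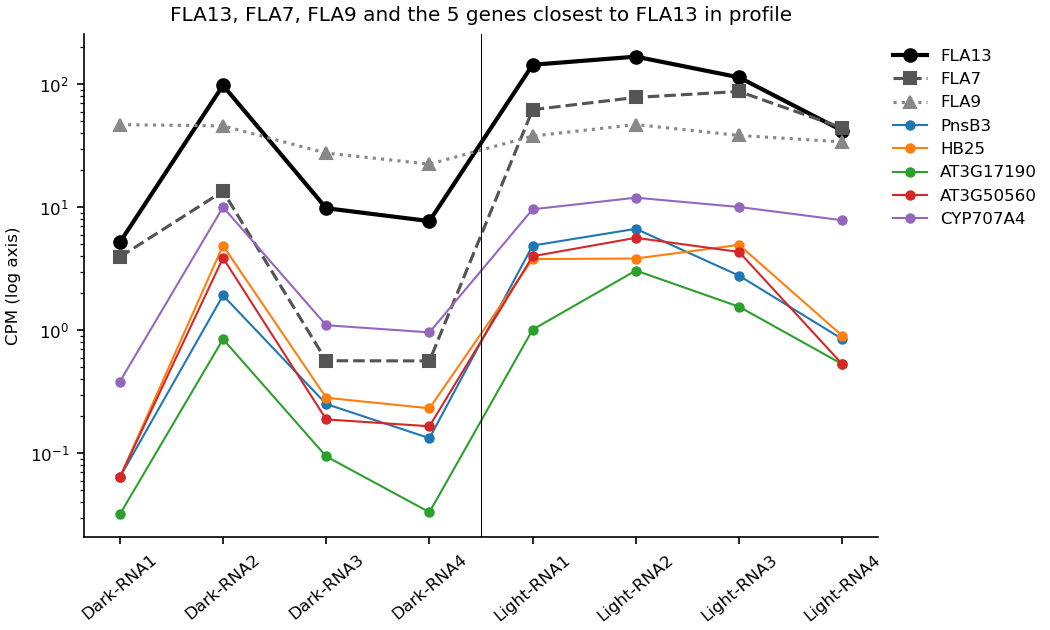
Level in CPM (vertical axis, log scale) of FLA13 (black circles), FLA7 (squares), FLA9 (triangles) and the 5 genes with the profile nearest to FLA13 (coloured lines) in the 4 dark-grown libraries (left of the line) and the 4 light-grown libraries (right of the line). FLA13 and the 5 genes, which were picked for their likeness to it, peak in Dark-RNA2 among dark-grown libraries and dip in Light-RNA4 among light-grown ones. FLA9 stays between 22.4 and 47.1 CPM.

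Of the 12 FLA genes outside the set, 6 passed the filter on low counts, with log2 fold changes around a median of -0.45 that ranged from -0.61 in FLA15 to 0.41 in FLA4. FLA18 (AT3G11700), the highest of these per exon length, stood at 50.1, 54.4, 38.5 and 34.1 CPM in the dark-grown libraries, against 59.3, 72.7, 61.9 and 53.6 CPM in the light-grown libraries. FLA15 (AT3G52370) stood at 5.50, 13.8, 5.998 and 5.43 CPM in the dark-grown libraries, against 9.76, 12.7, 12.8 and 11.6 CPM in the light-grown libraries. FLA10, whose protein is 84.0% identical to that of FLA8, had a log2 fold change of -0.55 (SE 0.28), beside -0.82 (SE 0.27) for FLA8. FLA16, FLA17 and FLA18 had log2 fold changes of -0.41, -0.34 and -0.48. Without Dark-RNA2 the log2 fold change of FLA15 was -1.05 (SE 0.14), and those of FLA16, FLA17 and FLA18 were -0.55, -0.57 and -0.59. FLA4 (SOS5) stood at 1.68, 2.80, 1.88 and 3.58 CPM in the dark-grown libraries, against 2.05, 1.93, 2.00 and 1.48 CPM in the light-grown libraries, and its groups overlapped. FLA3 and FLA14 were at 0 counts in all 8 libraries, and FLA5, AT1G15190, FLA20 and FLA21 had at most 11 counts in any library.

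Genes of other AGPs, of AGP sugar chains, of GPI anchors and of cellulose synthesis, and the FEI kinases, were tested by list in the same fit over all genes. With edgeR's quasi-likelihood test and Benjamini-Hochberg adjustment, 10.0% of all genes tested had an adjusted p-value under the threshold of 0.05, and these were 6.31% with a lower level in the dark and 3.69% with a higher one. Of the classical AGPs and short AG peptides, proteins with the same sugar chains and no fasciclin domain, 18 of 27 were tested, 1 was higher in the dark and none was lower in edgeR's quasi-likelihood test. At an unadjusted p under 0.05 these counts were 4 and 2, and DESeq2 called 5 in all. Over all genes, 4819 of 19129 had an unadjusted p under 0.05 in edgeR's test, and DESeq2 called 3356 in its own fit. The median log2 fold change of the list was 0.13. The gene called, AGP24 (AT5G40730), stood at 72.3, 32.1, 56.8 and 55.9 CPM in the dark-grown libraries, against 19.5, 17.8, 13.9 and 19.9 CPM in the light-grown libraries. Its groups did not overlap, and its log2 fold change was 1.61 (SE 0.24, edgeR adjusted p = 0.0041), with Dark-RNA2 the lowest dark-grown library. AGP15 (AT5G11740), an AG peptide and the listed gene of highest CPM, averaged 599 ± 212 CPM in dark-grown cells and 655 ± 42 CPM in light-grown cells (SD, n = 4 each), with a log2 fold change of -0.13 (SE 0.22, edgeR adjusted p = 0.77). Without Dark-RNA2 it was -0.40 (SE 0.10, edgeR adjusted p = 0.036), the only 1 of 15 other settings in which AGP15 was called.

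Of the enzymes that hydroxylate the prolines of AGPs and build their sugar chains, 21 of 22 were tested. In edgeR's quasi-likelihood test 1 was higher and 2 were lower in the dark, with a list median of 0.08. At an unadjusted p under 0.05, 3 were higher and 4 were lower, and DESeq2 called 4. FUT6 (AT1G14080), which adds fucose to AGPs, stood at 13.6, 1.33, 2.70 and 1.09 CPM in Dark-RNA1 to Dark-RNA4, against 0.234, 0.119, 0.123 and 0.212 CPM in Light-RNA1 to Light-RNA4. The light-grown counts were 9, 4, 3 and 4, so the light-grown level is poorly measured. The groups did not overlap, with Dark-RNA1 far above the others, and the log2 fold change was 4.74 (SE 0.97, edgeR adjusted p = 0.018). Without Dark-RNA1 it was 3.29 (SE 0.49, edgeR adjusted p = 0.0077). Leaving out Light-RNA1, Light-RNA2 or Light-RNA3 gave adjusted p-values of 0.054, 0.062 and 0.069 in that test. The galactosyltransferase family genes AT1G27120 and AT2G25300 had log2 fold changes of -1.003 (SE 0.26) and -0.45 (SE 0.11), with edgeR adjusted p-values of 0.045 and 0.041. AT1G27120 stood at 6.07, 8.01, 4.05 and 3.65 CPM in the dark-grown libraries, against 9.95, 11.6, 13.04 and 9.06 CPM in the light-grown libraries, without overlap. P4H2 (AT3G06300), a prolyl hydroxylase and the gene of highest CPM in the list, averaged 72.2 ± 5.3 CPM in dark-grown cells and 54.0 ± 11.3 CPM in light-grown cells (SD, n = 4 each, log2 fold change 0.42, edgeR adjusted p = 0.11). Without Light-RNA4 its log2 fold change was 0.58 (SE 0.097, edgeR adjusted p = 0.0081), the only 1 of 15 other settings in which P4H2 was called.

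Of the 6 genes of GPI anchor assembly all were tested and none was called by edgeR's quasi-likelihood test or by DESeq2, with 2 at an unadjusted p under 0.05. Their log2 fold changes lay between -0.28 and 0.36. AT3G27325, the gene of highest CPM among them, averaged 180 ± 10 CPM in dark-grown cells and 198 ± 13 CPM in light-grown cells (SD, n = 4 each).

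Of 9 genes of cellulose synthesis in the primary wall, all were tested, 2 were lower in the dark and none was higher in edgeR's quasi-likelihood test, and the list median was -0.31. At an unadjusted p under 0.05, 3 were lower and none was higher, and DESeq2 called 3. CESA5 (AT5G09870), a subunit of cellulose synthase, stood at 70.9, 91.8, 62.7 and 63.4 CPM in the dark-grown libraries, against 120, 121, 137 and 106 CPM in the light-grown libraries, without overlap. Its log2 fold change was -0.75 (SE 0.14, edgeR adjusted p = 0.012). COB (AT5G60920), a GPI-anchored protein that orients cellulose deposition, had a log2 fold change of -0.50 (SE 0.13, edgeR adjusted p = 0.039). FEI1 (AT1G31420), the kinase that acts with FLA4, stood at 207, 262, 199 and 201 CPM in the dark-grown libraries, against 333, 372, 357 and 247 CPM in the light-grown libraries (log2 fold change -0.59, SE 0.15, edgeR adjusted p = 0.040). FEI2 had a log2 fold change of -0.30 and was not called (unadjusted p = 0.020 in edgeR's quasi-likelihood test). For AT1G27120, AT2G25300, COB and FEI1, leaving out any library other than Dark-RNA2 and Light-RNA4 took the adjusted p of the edgeR test over the threshold, to between 0.066 and 0.134.

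Of 9 genes of secondary wall cellulose and its regulators 4 were tested and none was called by edgeR's quasi-likelihood test or by DESeq2, nor was any at an unadjusted p under 0.05. CESA4 (AT5G44030), the gene of highest CPM among them, averaged 4.74 ± 0.73 CPM in dark-grown cells and 4.83 ± 0.59 CPM in light-grown cells (SD, n = 4 each), and SND1, NST1 and CTL2 had at most 1 count in any library.

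**Figure D5:**
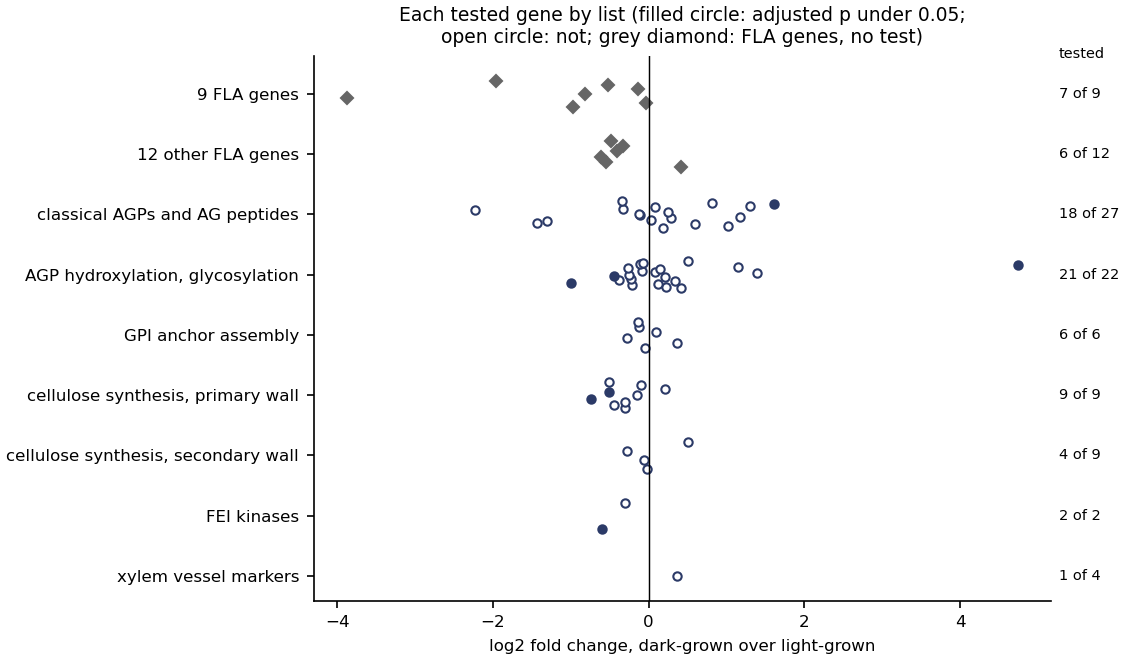
Log2 fold change of dark-grown over light-grown cells (horizontal axis) for each tested gene, by list. Filled circles are genes with an adjusted p under 0.05 in edgeR's quasi-likelihood test, open circles are not, and grey diamonds are FLA genes, given without a test. All 7 members lie below 0, and the gene farthest to the right is FUT6 at 4.74.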

How the data were processed

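RNAseq counts of 4 dark-grown and 4 light-grown libraries were analysed, and 8 MNase-seq samples of the series are not analysed here. The authors mapped 50 base paired-end reads to TAIR10 with TopHat2 and deposited HTSeq counts per gene without normalization. Versions, counting mode and use of strand are not given in the sources used here. A deposited table of the authors' own edgeR comparison (fold changes, p-values) was not used.

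Counts were fitted with edgeR 4.0.16 in R 4.3.3, without covariates, with TMM factors of 0.940 to 1.03, filterByExpr (minimum count 10, minimum total 15), a robust quasi-likelihood test, and p-values adjusted by Benjamini-Hochberg over 19129 genes with a threshold of 0.05. Log2 fold changes are dark over light, and the standard error is its size over the square root of F. Profiles used log2 CPM with a prior count of 2. On simulated counts for 19129 genes, 53.7%, 87.7% and 95.6% of genes changed by 1, 2 and 3 log2 units were called. In 19129 genes 1912 were called, 4819 at an unadjusted p under 0.05.

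The members and the lists were chosen with earlier results of these data known. Named genes are all FLA genes, the called genes of each other list (at most 4), its most abundant gene, and the 5 genes nearest to FLA13 in profile. Alternatives were DESeq2 1.42.0, a likelihood ratio test, RLE factors, library totals, 2 other filters, the replicate number as a block, and each library left out in turn. Leaving out Dark-RNA2 and Light-RNA4 together was added after seeing the data. Names and sequence came from the TAIR10.1 RefSeq reference. Protein identity is the share of the shorter protein in a global alignment. The study's results describe replicate cultures, 4 light-grown and 4 dark-grown. The labels mention duplicate cultures but list 4 libraries a group. The p-values thus measure only the spread between these libraries, which may be partly technical. Counts of libraries of the same group had 22.8 to 127 times the variance that sampling gives, so none was taken as the same library sequenced again. The closest pairs were Light-RNA2 and Light-RNA3 at 22.8 and Dark-RNA3 and Dark-RNA4 at 27.2. Duplicate flasks or repeat preparations of the same culture cannot be told from separate cultures by this measure.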

Additional observations from a re-analysis of the deposited data

Results flagged for a closer look

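Dixon's criterion for a library far from the other 3 of its group was applied 70 times, to levels of named genes and to summed levels. It was met 13 times, where chance gives 1 in 20 or about 3.5, and in 12 of these the library was Dark-RNA2. For FLA13 it stood at 98.1 CPM, against 5.18 to 9.83 in the other dark-grown libraries, and for FLA2 at 157.6, against 85.0 to 88.2. The FLA genes outside the set showed the same library, FLA15 at 13.8 against 5.43 to 5.998 in the others, and FLA17 at 17.0 against 9.67 to 10.2 in the others. The summed level was 368.8 CPM over the 9 genes, against 147.3 to 175.8 in the others, and 482.5 CPM over all 21 FLA genes, against 222.6 to 258.6 in the others.

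Among related genes Dark-RNA2 stood at 251.1 CPM for COB, against 192.8 to 199.3 in the others, and at 261.7 for FEI1, against 198.8 to 206.7 in the others. It stood at 4.56 for XCP1 of xylem vessels, against 1.10 to 1.43 in the others, and the 4 vessel markers summed to 4.59, against 1.13 to 1.62 in the others. It stood at 2.28 for LHCB2.1, against 0.031 to 0.064 in the others, and the markers of the light-grown state summed to 42.0, against 12.7 to 16.7 in the others. The remaining group is FUT6, at 13.6 in Dark-RNA1 against 1.09 to 2.70 in the others. The genes share libraries, so these groups are not independent of each other, and what sets Dark-RNA2 apart was not tested.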

How the results depend on the processing

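The median log2 fold change of the members stayed between -1.01 and -0.63 over the 15 alternatives, and the counts for GPI anchor assembly, secondary wall, xylem and light-state genes stayed at 0, 0, 0 and 6. The number of genes called moved with the libraries. Over all genes it was 962 to 2873 with each library left out (lowest without Light-RNA3, highest without Dark-RNA2), 3356 with DESeq2 and 4850 without Dark-RNA2 and Light-RNA4. Classical AGPs gave 2 with RLE factors, 2 with the replicate block, 4 with the likelihood ratio test, 5 with DESeq2, 1 to 3 with each library left out and 6 without both. AGP hydroxylation and glycosylation gave 0 to 5 with each library left out and 9 without both, the primary wall 1 to 5 and 6, and the FEI kinases 0 to 1 and 2. With each library left out AGP15 ran from -0.40 to 0.0040, CESA4 from -0.11 to 0.06 and XCP1 from -0.34 to 0.58, changing sign, as did FLA2 (-0.31 to 0.08) and FLA9 (-0.30 to 0.03), and without both FLA2 was -0.44, AGP15 -0.44, CESA4 0.087 and XCP1 -0.25. AT2G25300 was not called without the low-count filter, with the block or with the likelihood ratio test (adjusted p = 0.057, 0.061 and 0.060 in edgeR), nor AT1G27120 with RLE factors or the filter of 1 CPM in 4 libraries (adjusted p = 0.052 and 0.0504 in edgeR). The cause of these changes was not tested. Same-numbered libraries did not deviate together in every pair (r = -0.14, 0.58, -0.025 and 0.22), so the numbers were not taken to pair the cultures. With the replicate block 2221 genes were called, FLA7 was -4.71 and FLA13 -2.88. The depth limits FLA6 and FLA11, which no library measured above 5 counts.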
